A study of Homo sapiens with 4 samples.

Results

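The integrin, laminin and collagen genes are the protein-coding genes whose symbols match a fixed pattern for integrin alpha and beta, laminin and collagen chains. For integrins the pattern takes a number or V, X, M, L or E after ITGA or ITGB, so ITGA2B and ITGAD are left out. The rule reads the symbol and the biotype and no measured value, though the group was picked with earlier results of these data known. Of these genes, 58 carried at least 1 called NSUN2 RIP-seq peak, out of 12397 protein-coding genes with a peak. They held 165 of the 48104 peaks of the lactate list, 273 of the 95785 peaks of the ddH2O list and 346 of the 116484 merged peaks.

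NSUN2 is an enzyme that methylates cytosine in RNA, and RIP-seq reads the RNAs that an anti-NSUN2 antibody brings down from a cell lysate. Wild-type PANC-1 cells, an established line from a human pancreatic ductal adenocarcinoma, received sodium lactate at 30 mM or ddH2O as vehicle for 24 h, and the question of the comparison was which RNAs NSUN2 bound with and without lactate. Each condition had 1 immunoprecipitation (IP) library and 1 input library taken before the pull-down, 4 libraries in all, from 1 cell line, and the control was water and not another sodium salt. No value has a replicate error, so no p-value was computed for lactate against ddH2O, and all intervals are at the 95% level and cover counting error only.

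Integrins are receptors made of an alpha and a beta chain that span the plasma membrane and tie the cytoskeleton to the extracellular matrix. Laminins are cross-shaped trimers of an alpha, a beta and a gamma chain that form the sheet of the basement membrane, and collagens are triple helices that build fibrils, networks and shorter membrane-bound or basement membrane forms. In pancreatic ductal carcinoma the fibrillar collagens are known to come mainly from stromal fibroblasts, while carcinoma cells carry laminin-binding and collagen-binding integrins.

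The label of the cell line was checked against markers of cell types. The 4 ductal keratins KRT7, KRT8, KRT18 and KRT19 carried peaks in both lists, and the densest KRT18 window held 2737 reads with lactate and 8085 with ddH2O. Markers of fibroblasts, endothelium and pancreatic acinar or islet cells had no peak in either list, while 1 of 3 leukocyte and 1 of 3 neural markers had a ddH2O peak on 3 and 2 reads. The reads of the 2 IP libraries over all merged peaks outside MT-RNR2 and MALAT1 summed to 1945000 for lactate and 3536821 for ddH2O, a 1.82-fold difference, and the depth of the input libraries is unknown. The library kit does not mark strand, so reads of a gene and of an overlapping or antisense gene cannot be told apart.

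Of the 80 genes that match the pattern and that RefSeq lists as protein-coding, 40 (Wilson interval 39.3 to 60.7%) had a lactate peak and 52 (65.0%, 54.1 to 74.5%) had a ddH2O peak. Among all 20056 RefSeq protein-coding genes the shares were 47.1% and 58.4%, inside both intervals. A total of 34 genes had a peak in both lists, 6 in the lactate list alone, 18 in the ddH2O list alone and 22 in neither. The ddH2O list was the longer list for the whole transcriptome as well, so presence in it alone is not a measure of a difference in binding. The members' genes were long, with a median span of 95724 bases behind a lactate peak against 42290 bases for other protein-coding genes.

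By family, laminin chains were found in 7 of 12 genes with lactate and 11 of 12 with ddH2O, and integrin beta chains in 6 and 7 of 8. Integrin alpha chains were found in 7 and 11 of the 16 that match the pattern. Collagen chains were found in 20 and 23 of 44, and the 16 collagen genes with no peak in either list included COL1A2, which encodes the partner chain of type I collagen, and COL12A1, a fibril-associated collagen. The matched integrin chains without any peak were ITGA4, ITGA11, ITGAL, ITGAM and ITGB7, of which ITGAL, ITGAM, ITGA4 and ITGB7 are best known from leukocytes. Not all leukocyte chains lacked a peak, as ITGB2 had 2 ddH2O peaks and ITGAX had 1. The only laminin gene without a peak in either list was LAMA2, the alpha chain of muscle laminin.

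Peaks were spread unevenly over the genes. ITGA6, the alpha chain of the laminin receptor, had 17 lactate and 20 ddH2O peaks. ITGB1, the beta chain shared by most collagen and laminin receptors, had 17 and 19, and ITGA2, its partner in the main collagen receptor, had 17 in each list. LAMB1 had 12 and 17, and LAMC1, the gamma chain found in most laminins, had 11 and 16. Among collagens, the fibril-regulating type V chains COL5A1 and COL5A2 had 7 and 18 and 9 and 15 peaks.

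Of the 165 lactate peaks of the members, 91 shared at least 1 base with a peak of the ddH2O list (55.2%, 47.5 to 62.5%, against 58.5% on other protein-coding genes). In the other direction 92 of 273 ddH2O peaks (33.7%, 28.4 to 39.5%, against 29.8%) overlapped a lactate peak, and both other shares lie inside the members' intervals. The enrichment over input was like that of other protein-coding genes, with a median fold of 3.24 for lactate against 3.24, and of 3.04 for ddH2O against 3.03. The 73 lactate peaks with a q-value below 0.05 were 44.2% of the members' 165, against 44.6% on other protein-coding genes, and the 144 such ddH2O peaks were 52.7% of 273, against 50.9%.

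The strongest enrichment over input lay in a few exons and 3′ UTRs. With only the best peak of each gene counted, the highest fold in the lactate list was 23.4 (q-value 4.3e-207) in an exon-labelled peak near the 3′ end of COL18A1, the collagen that is cut to release endostatin, followed by 16.7 in the 3′ UTR of COL26A1, 15.8 in an exon of ITGA6 and 13.4 in LAMB2, a laminin beta chain. In the ddH2O list the same ITGA6 exon came first with a fold of 25.4 (q-value 2.4e-129), followed by 19.3 in an exon of LAMC1, 17.5 in a peak labelled 3′ UTR of ITGB4, the partner of ITGA6, and 17.3 in ITGA2. The midpoint of the ITGB4 peak lay past the RefSeq end of the gene, and GALK1 overlaps its window. Window reads did not always match the called peaks. An ITGA6 exon peak with a ddH2O fold of 9.83 and a q-value of 3.4e-28 lay in a window with 1 ddH2O read. Reads counted per window can thus miss reads under a peak, and the cause was not tested. Of the members' peaks at a q-value below 0.05, 15 of 73 for lactate (20.5%) and 33 of 144 for ddH2O (22.9%) lay in windows with fewer than 10 reads in the same IP library, against 15.3% and 27.7% for other protein-coding genes.

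By transcript region, introns held 87 of the 165 lactate peaks (52.7%, 45.1 to 60.2%) and 129 of the 273 ddH2O peaks (47.3%, 41.4 to 53.2%). On other protein-coding genes introns held 61.6% and 61.3%, above both intervals. Exons held 22.4% of the members' lactate peaks (16.7 to 29.4%, against 18.7%) and 29.3% of their ddH2O peaks (24.2 to 35.0%, against 21.0%), and 3′ UTRs held 22.4% (16.7 to 29.4%, against 18.1%) and 21.6% (17.1 to 26.9%, against 15.8%). Peaks on 1 gene share their RNA, so these intervals understate the spread between genes.

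The region profile is given by family without a test between families. Among the families, laminin chains had the largest share in exons, with 16 of 34 lactate peaks (47.1%, 31.5 to 63.3%) and 30 of 56 ddH2O peaks (53.6%, 40.7 to 66.0%). Collagen chains had 40 of 58 (69.0%, 56.2 to 79.4%) and 67 of 113 (59.3%, 50.1 to 67.9%) in introns, intervals that hold the 61.6% and 61.3% of other protein-coding genes. Integrin alpha chains had the largest share in 3′ UTRs among the families, with 15 of 44 (34.1%, 21.9 to 48.9%) and 22 of 60 (36.7%, 25.6 to 49.3%). The last of these rested largely on ITGA2, with 10 of the 15 and 11 of the 22, and the label itself was not always at the 3′ end. On ITGA2, 7 of 10 lactate and 9 of 11 ddH2O peaks labelled 3′ UTR lay before the last 10% of the RefSeq span. Over all members this held for 13 of 35 lactate peaks (37.1%) and 30 of 57 ddH2O peaks (52.6%), against 33.9% and 40.4% on other protein-coding genes.

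The 2 IP libraries were compared in windows of 2000 bases around each merged peak. Coordinates are those of the merged peak on GRCh38. The measure was the log2 ratio of the authors' normalized read densities, lactate over ddH2O, and windows with at least 20 reads over both libraries were called at 2-fold or more. These windows compare the IP libraries without their inputs, so more binding by NSUN2 and more of the RNA itself cannot be told apart. Some windows also held fewer reads than the called peak in them implies, as on ITGA6 above. Of the 346 members' windows, 130 in 30 genes passed the read minimum. They held 12 windows that were higher with lactate (9.23%, against 7.65% of all 37925 windows and 7.30% of those on protein-coding genes) and 28 that were lower (21.5%, against 18.6% and 18.3%). The median log2 ratio was -0.23 over the members' windows and -0.20 over all windows. When reads were instead scaled by the library sums, 20 were higher (15.4%, against 17.0% of all windows and 16.4% of those on protein-coding genes). On that scale 19 were lower (14.6%, against 8.77% and 8.57%), with a median of 0.00 against 0.13. The scaling itself moved windows up by a median of 0.49, and by more where reads were few. On the densest windows it moved them down, as the ITGA3 3′ UTR window from 0.57 to 0.12. All 12 higher windows were also higher by library sums, and 19 of the 28 lower ones were also lower. The counting interval of the ratio left out no change for all 40 called windows and for 62 of the 130.

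**Figure D1:**
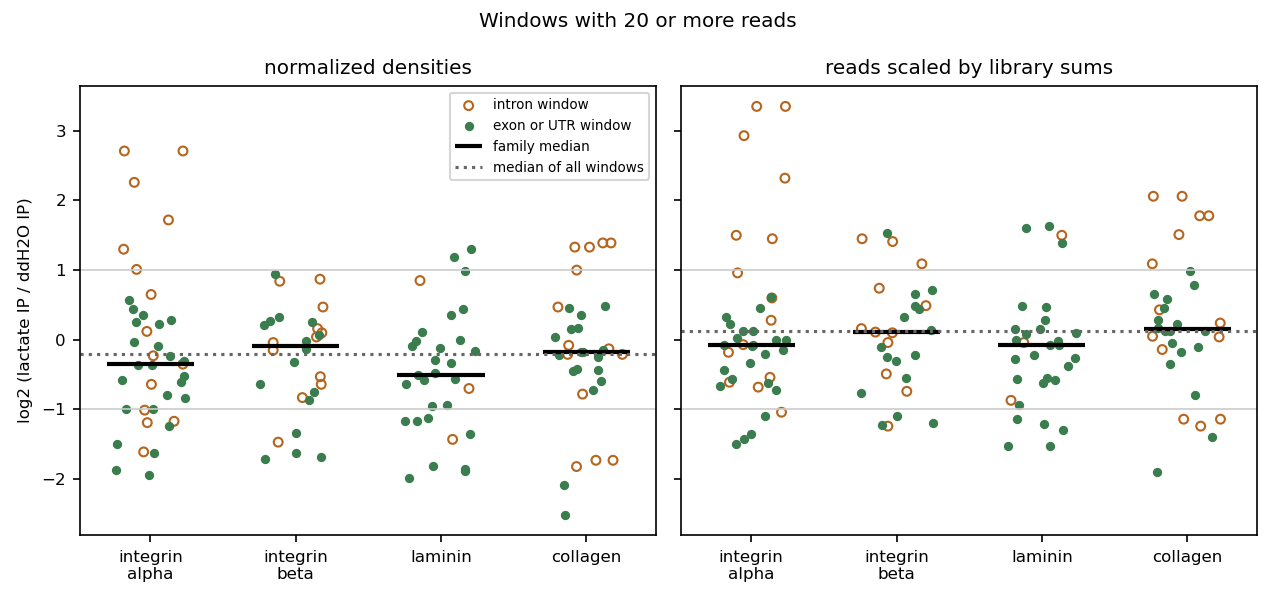
Log2 ratio of lactate IP over ddH2O IP (vertical axis) for the 130 windows with 20 or more reads, by family, from normalized densities on the left and from reads scaled by library sums on the right. Points are windows, open for introns and filled for exons and UTRs, with black bars for family medians, a dotted line for the median of all windows and grey lines at 2-fold, and the families' points overlap widely in both panels.

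By family on the normalized densities, integrin alpha chains had 6 higher and 9 lower of 39 windows (median -0.35), laminin chains 2 and 9 of 31 (median -0.50), and collagen chains 4 and 5 of 32 (median -0.18). Integrin beta chains had 0 higher and 5 lower of 28 windows (median -0.09). In percent, higher windows were 15.4, 6.45, 12.5 and 0 of these 4 families in that order (against 7.65% of all windows), and lower windows 23.1, 29.0, 15.6 and 17.9 (against 18.6%). By library sums the integrin beta chains had 4 higher and 4 lower windows (median 0.10), so the lack of higher windows held under the normalized densities alone. The laminin split by library sums was 4 and 5 (median -0.07). The collagen split was 6 and 5 (median 0.15) and the integrin alpha split 6 and 5 (median -0.08). On that scale higher windows were between 12.9 and 18.8% of a family (against 17.0%) and lower windows between 12.8 and 16.1% (against 8.77%).

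Of the 12 higher windows 10 lay in introns, as did 2038 of the 2441 higher windows on all protein-coding genes. Of the members' intron windows, 10 of 44 were higher (22.7%, against 13.0% of all intron windows on protein-coding genes) and 9 were lower (20.5%, against 17.3%). Of the exon windows, 2 of 49 were higher (4.08%, against 2.12%) and 12 were lower (24.5%, against 22.7%), and of the 33 windows in 3′ UTRs 0 were higher (against 2.28%) and 5 lower (15.2%, against 15.5%). The members had 4 windows in 5′ UTRs, 0 higher (against 4.66%) and 2 lower (against 29.8%), both at the start of ITGB1 and overlapping each other. By library sums 16 of 44 intron windows were higher and 5 lower (36.4% and 11.4%, against 27.2% and 7.65% on other protein-coding genes), 3 of 49 exon windows were higher and 8 lower (6.12% and 16.3%, against 6.82% and 11.6%), and 1 of 33 windows in 3′ UTRs was higher and 4 lower (3.03% and 12.1%, against 6.64% and 7.01%). Several of these windows overlap each other, and with 1 window per overlapping set 8 higher and 17 lower windows were left over all regions.

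The densest window of a gene is the one with most reads over both IP libraries, whatever its enrichment over input, and because every window has the same length the reads can be set side by side. The median over the 58 genes was 20.5 reads over both IP libraries, against 57.0 over the 12397 protein-coding genes, and 18 genes reached 100 reads. Among the 30 genes with at least 20 reads in that window, the median log2 ratio was -0.15 on the normalized densities and 0.06 by library sums. Past 2-fold on the normalized densities were 3 of the 30, namely ITGAE, ITGAV and COL6A1, all lower with lactate, against 12.5% lower and 3.32% higher among the densest windows of 8819 protein-coding genes. By library sums 2 were lower (against 5.84%) and 0 higher (against 8.14%), since ITGAV, with 8 and 24 reads, went from -1.19 to -0.61.

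**Figure D2:**
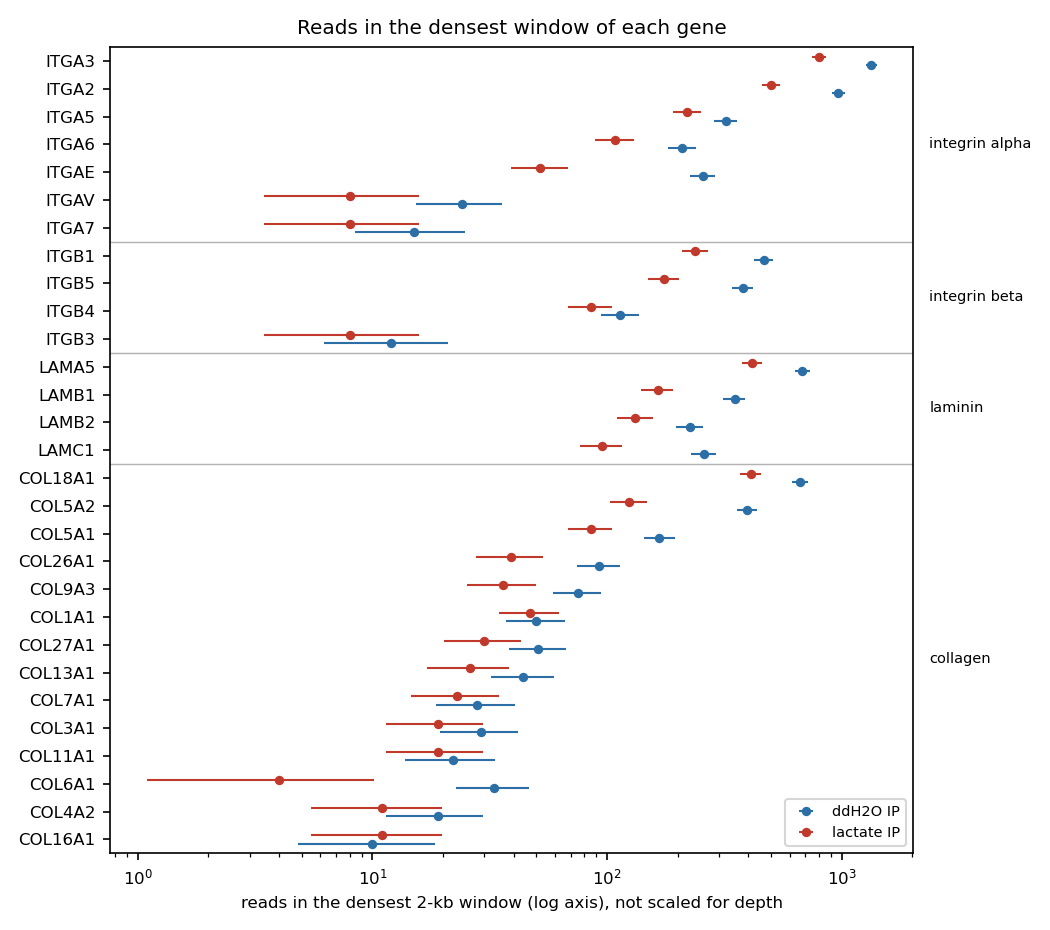
Reads in the densest window of the genes shown, all with at least 20 reads (horizontal log axis, reads per window of 2000 bases, not scaled for depth), red for the lactate IP and blue for the ddH2O IP, with exact Poisson intervals at the 95% level. The ddH2O point lies to the right for nearly every gene, as the ddH2O library held 1.82 times the reads, and ITGA3 (797 and 1336 reads) is the highest and ITGAE and COL6A1 show the widest gaps.

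Among the integrin alpha chains, the 3′ UTR of ITGA3, which pairs with ITGB1 as a laminin receptor, was the densest, with 797 reads with lactate and 1336 with ddH2O at chr17:50089632-50090588. Its normalized densities were 630 and 424 reads per kb, a log2 ratio of 0.57 (counting interval 0.44 to 0.70), and by library sums it was 0.12. The 3′ UTR of ITGA2 followed with 501 and 964 reads (log2 ratio 0.28, -0.08 by library sums). ITGA5, the alpha chain of the fibronectin receptor, had 219 and 320 reads in its 3′ UTR (0.44, and 0.32 by library sums), where GPR84-AS1 also lies. None of these 3 reached 2-fold on either scale, and the sign for ITGA2 flipped with the scale.

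The 3′ UTR of ITGA6 held 108 and 208 reads with a log2 ratio of -0.09 (-0.45 to 0.24), on a stretch that PDK1-AS1 also covers. ITGAE, the alpha chain that binds E-cadherin, stood apart from the other dense windows, with 52 reads with lactate and 256 with ddH2O in an exon at chr17:3714554-3714927. Its log2 ratio was -1.49 (-1.97 to -1.08), and -1.42 by library sums. P2RX5 overlaps this window, so the gene that the reads came from cannot be told apart.

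ITGB1 had its densest window in an exon at chr10:32932338-32932749, with 237 reads with lactate and 464 with ddH2O, and a log2 ratio of 0.07 (-0.16 to 0.30). ITGB5, a partner of ITGAV in receptors for vitronectin, had 175 and 379 reads (-0.13, -0.40 to 0.13). Both intervals include no change on the normalized densities. ITGB4 had 85 and 114 reads in a 3′ UTR window that also covers GALK1 (0.33, -0.10 to 0.74). The remaining beta chains were sparse, with 8 and 12 reads for ITGB3, the platelet and endothelial chain, and 5 and 12 for ITGB2, the leukocyte chain.

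ITGB1 also had called peaks close to annotated start sites in both lists. Its 5′ UTR peak had a fold over input of 4.65 (q-value 2.7e-37) with lactate and 11.4 (q-value 2.1e-230) with ddH2O, and the window at chr10:32957970-32958220 held 10 reads with lactate and 45 with ddH2O, a log2 ratio of -1.68 (-2.94 to -0.78) and -1.20 by library sums. The window held few reads for such q-values, since the densest ITGB1 window had 464 ddH2O reads at a q-value of 9.3e-194, and the cause was not tested. A second RefSeq start inside the gene had folds of 1.63 and 2.75. The sequence at the 5′ edge of each shared stretch is given because only these entries of the promoter table, which run from before to just after a start, met peaks of both lists on a member, and was read from RefSeq promoter entries of GRCh38.p14 on the minus strand, with capitals for the bases that both lists cover and lower case for the 10 bases before them.
ITGB1 5′ UTR, chr10:32958182-32958211: ccagcgggagTCGCGGAACAGCAGGCCCGA
ITGB1 second start, chr10:32935665-32935694: ggggctggagTGAAATGGTTTGAGAGCCAT
The first edge lay 29 bases after the annotated start at 32958230, and 22 of its 30 bases are C or G, 10 of them C. The second lay 126 bases upstream of the start at 32935558, with 16 C or G and 3 C.

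Some ITGB1 peaks lay outside the gene. Of its 17 lactate and 19 ddH2O peaks, 7 and 6 had their midpoint outside the RefSeq span. The same held for 1 of 4 lactate and 2 of 4 ddH2O peaks of LAMA5, for 1 of 4 ddH2O peaks of ITGB4 and for the 1 peak of COL17A1. A lower window among those of ITGB1, at chr10:32894146-32894529 past the annotated 3′ end and labelled intron by the authors, held 29 reads with lactate and 128 with ddH2O (-1.47, -2.14 to -0.92). It thus belongs to ITGB1 only by that annotation.

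Among the laminins, LAMA5, the alpha chain of the widespread epithelial laminins, had the densest window, with 414 reads with lactate and 679 with ddH2O, a log2 ratio of 0.44 (0.26 to 0.62) and 0.15 by library sums, but ADRM1 overlaps it. LAMB1 had 164 and 349 reads in its 3′ UTR at chr7:107923815-107924481 (-0.12, -0.40 to 0.14), and LAMB2 had 132 and 226 reads (0.11, -0.21 to 0.42) where USP19 also lies. These intervals include no change. LAMC1 had 95 and 258 reads in an exon at chr1:183142390-183143111 (-0.57, -0.94 to -0.24), an interval below no change on the normalized densities.

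LAMC1 held 5 of the 9 lower laminin windows, in exons between 109.1 and 117.0 kb from its 5′ end. All but the one at 117.0 kb form a chain of overlapping windows that share reads. The 2 with most reads, which overlap, had 35 reads with lactate and 125 with ddH2O (-1.16, -1.77 to -0.63) and 18 and 99 (-1.85, -2.73 to -1.18). By library sums they were -0.94 and -1.53, so the first of them was under 2-fold on that scale. No LAMC1 window was higher on the normalized densities, and by library sums 1 intron window of 13 and 8 reads was past 2-fold (0.85 on the normalized densities).

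LAMB1 had windows in both directions within a few kb. The exon windows at 68.3 and 68.9 kb from its 5′ end held 59 reads with lactate and 35 with ddH2O (1.30, 0.69 to 1.96) and 33 and 19 (1.19, 0.36 to 2.11), which were the only exon windows of any member called higher on the normalized densities. The exon window at 76.9 kb held 55 and 248 reads (-1.36, -1.83 to -0.96). The first 2 windows overlap and share reads. All 3 kept their call by library sums, with 1.60, 1.63 and -1.29. The fourth called window, in an intron at 54.9 kb with 8 and 29 reads (-1.43, -2.89 to -0.38), lost its call on that scale (-0.87).

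**Figure D3:**
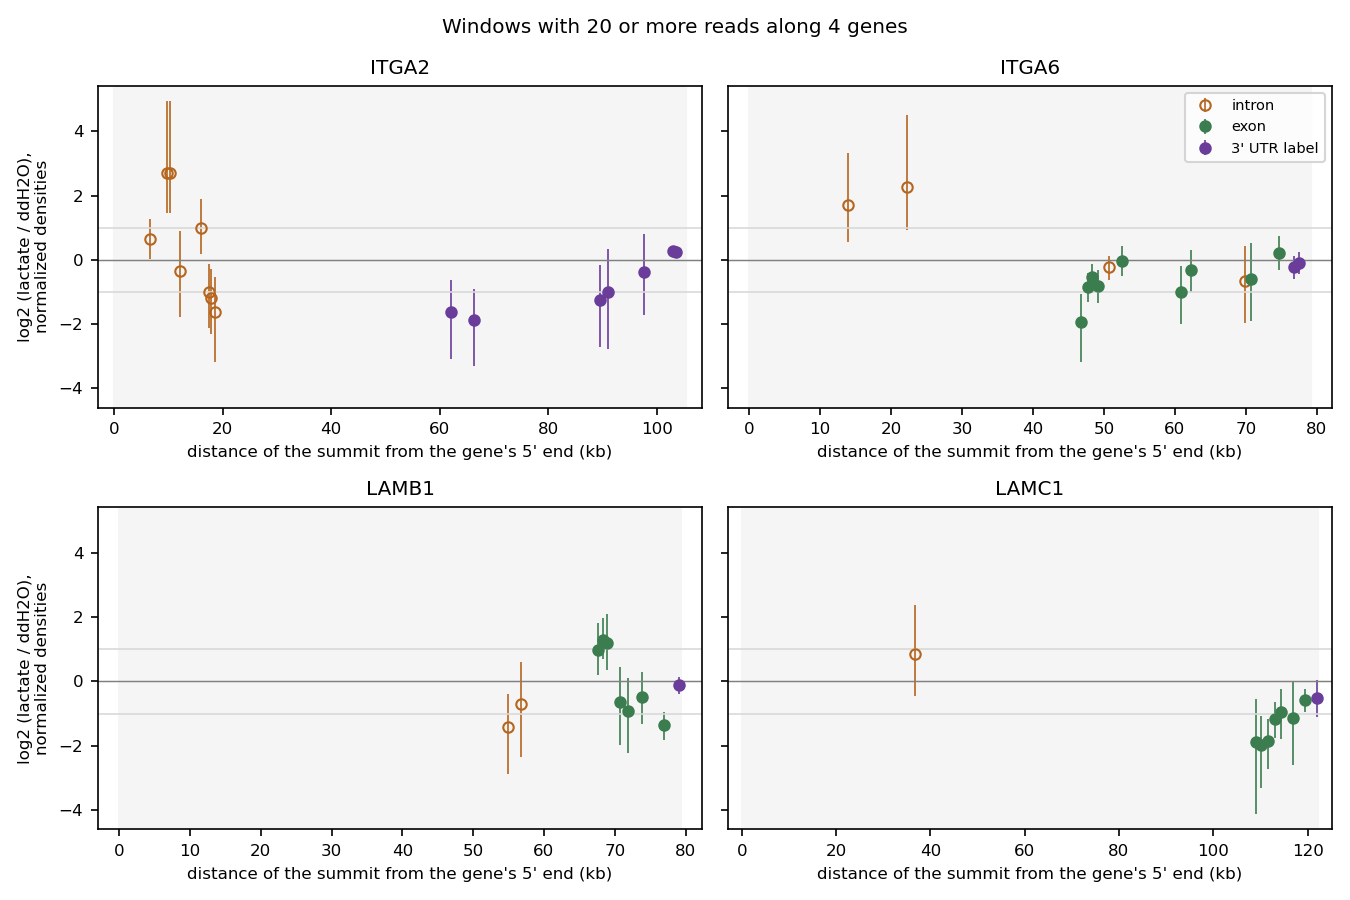
Log2 ratio of lactate IP over ddH2O IP on the normalized densities (vertical axis) against distance from the gene's 5′ end (horizontal axis, kb) for windows with 20 or more reads on ITGA2, ITGA6, LAMB1 and LAMC1. Bars are exact counting intervals at the 95% level, colours give the authors' region label and grey lines mark 2-fold. Introns in the 5′ part hold higher and lower windows on ITGA2 and higher ones on ITGA6. LAMB1 exons hold windows in both directions, and LAMC1 exons hold lower windows.

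ITGA2, ITGA6, LAMB1, COL18A1 and COL5A2 were the 5 genes with windows in both directions. On ITGA2, 2 overlapping intron windows near 10 kb from the 5′ end shared 27 reads with lactate and 4 with ddH2O (2.71, 1.46 to 4.96), and an intron window at 16.0 kb had 32 and 21 (1.01, 0.20 to 1.90). Intron windows from 17.4 to 18.5 kb were lower, with between 7 and 13 lactate reads against 29 to 37 ddH2O reads. These 3 lower windows overlap one another. Only 1 of them kept its call by library sums. The higher ones all did, but at their depth that scale always gives the larger ratio. The other 3 lower windows of ITGA2 carried the 3′ UTR label, with 8 and 34 reads at 62.1 kb (-1.63), 8 and 41 at 66.4 kb (-1.87) and 8 and 25 at 89.5 kb (-1.24), and the first 2 of them were also lower by library sums. The densest ITGA2 window, at 103.0 kb, was under 2-fold on both scales.

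ITGA6 had intron windows of 21 and 7 reads at 14.0 kb (1.72, 0.55 to 3.32) and of 20 and 4 reads at 22.3 kb (2.26, 0.94 to 4.52). Its exon window at 46.8 kb held 10 and 55 reads and was lower (-1.94, -3.19 to -1.06), on a stretch that PDK1-AS1 also covers. ITGA3 had 1 called window, an intron window at 28.8 kb with 86 reads with lactate and 55 with ddH2O (1.30, 0.80 to 1.82). That intron window and the dense 3′ UTR window of ITGA3 thus differed by more than their counting intervals. The intron windows of ITGA6 and the ITGA2 pair near 10 kb, and the ITGB1 window at its 5′ UTR, were singled out after their values were seen.

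Among the collagens, COL18A1 had the densest window, with 409 reads with lactate and 663 with ddH2O (0.45, 0.27 to 0.63), and SLC19A1 overlaps it. COL5A2 followed with 124 and 395 reads in an exon at chr2:189033536-189034135 (-0.72, -1.03 to -0.43), an interval below no change on the normalized densities. COL5A1 had 85 and 167 reads in its 3′ UTR (-0.17, -0.58 to 0.20). COL26A1 had 39 and 92 (-0.59, -1.19 to -0.06) and COL9A3, a cartilage collagen chain, 36 and 75 where TCFL5 also lies (-0.45, -1.08 to 0.13).

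The called collagen windows lay on 3 genes. COL18A1 had 2 overlapping intron windows near 80 kb from its 5′ end that shared 33 reads with lactate and 17 with ddH2O (1.33, 0.48 to 2.30), and 3 lower windows, of which 2 overlap and share 6 and 27 reads and the other held 3 and 18. COL5A2 had 2 overlapping higher intron windows of 15 and 6 reads and 1 lower intron window of 6 and 29. COL6A1, a chain of the microfibrillar type VI collagen, had 4 and 33 reads in its 3′ UTR (-2.51, -4.75 to -1.30, and -1.90 by library sums), but its only called peak, in the ddH2O list, had a fold over input of 1.72 and a q-value of 0.95. COL1A1, the main chain of type I collagen, had 47 and 50 reads in its 3′ UTR (0.49, -0.12 to 1.09) and a called peak in the lactate list alone. COL5A2 introns, COL6A1 and COL1A1 were singled out after their values were seen.

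The genes around these families were read from 5 lists of matrix and adhesion genes, each given by the same window counts, to be read against the shares over all windows (7.65% higher and 18.6% lower, or 17.0% and 8.77% by library sums). Of 22 integrin adaptors and focal adhesion proteins, 19 had a lactate and 20 a ddH2O peak, and of 133 windows 20 were higher (15.0%) and 18 lower (13.5%), with a median of 0.25. By library sums 38 were higher (28.6%) and 6 lower (4.51%), with a median of 0.62. Its densest gene was ACTN4, the actin crosslinker, with 1632 reads with lactate and 2226 with ddH2O (1.02, 0.92 to 1.11), which was 0.42 by library sums and so under 2-fold there. An intron of TNS3, a tensin that binds integrin tails, had 271 and 161 reads (1.68, 1.39 to 1.97). PTK2, the focal adhesion kinase, had an intron window of 12 and 40 reads (-1.27, and -0.79 by library sums, under 2-fold there), and PARVA, a parvin, a 3′ UTR window of 6 and 40 (-2.23, and -1.69).

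Of 14 other matrix receptors, 12 and 13 had a peak, and of 26 windows 3 were higher (11.5%) and 1 lower (3.85%), with a median of 0.05, or 4 and 0 by library sums (median 0.24). CD151, a tetraspanin that binds laminin-binding integrins, was densest with 701 reads with lactate and 1101 with ddH2O (0.63). RPSA, the laminin receptor that is also a ribosomal protein, had a higher exon window of 32 and 20 reads (1.08, and 1.51 by library sums) and one of 5 and 16 that was lower on the normalized densities alone (-1.31, and -0.64). Of 21 collagen processing enzymes and chaperones, 14 and 18 had a peak, and of 28 windows 1 was higher (3.57%) and 5 lower (17.9%), with a median of -0.44. By library sums 4 were higher (14.3%) and 2 lower (7.14%), with a median of -0.22, and the shares over all windows moved the same way. P4HB, the beta subunit of prolyl 4-hydroxylase, was densest with 570 and 1170 reads (0.22), and P4HA1, its catalytic partner, had an exon window of 9 and 28 that was lower on the normalized densities alone (-1.22, and -0.67 by library sums).

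Of 17 matrix proteases and inhibitors, 8 and 10 had a peak, and of 20 windows 1 was higher (5.00%) and 2 lower (10.0%), with a median of -0.05. By library sums 3 were higher (15.0%) and 0 lower (median 0.24), and the shares over all windows moved the same way. TIMP1, a metalloprotease inhibitor, was densest with 261 reads with lactate and 470 with ddH2O (0.21). Of 16 glycoproteins and proteoglycans of the matrix, 6 and 10 had a peak, and of 7 windows 0 were higher and 1 lower (median -0.72), or 0 and 0 by library sums (median -0.29). The lower window was in the 3′ UTR of FN1, fibronectin, with 8 and 22 reads (-1.08, -2.56 to 0.04, and -0.49 by library sums).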

How the data were processed

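NSUN2 RIP-seq of PANC-1 cells gave 1 IP and 1 input library per condition, grouped from the sample titles. Per the submitters' processing notes the tools were fastp 0.20.1, HISAT2 2.1.0, MACS2 2.2.7.1, bedtools 2.29.2 and HOMER 4.11.1 with GRCh38. The library kit was a SMART-Seq kit, and the methods state that DNA was removed from the lysate. Peaks were called per IP library with the matching input as background. For every peak the authors deposited the fold enrichment (a ratio of IP to input) beside a q-value and a p-value, both also as −log10, and the gene, biotype and region. They merged both lists and ran MAnorm, and deposited a normalized signal (read density per kb) for each IP library and merged peak. The log2 ratio (M) and mean log2 density (A) that the authors deposited from MAnorm, and its P-value, are a comparison of their own and were not used, nor were pathway columns.

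Members were matched on the symbol rule with biotype protein-coding in either list, and merged peaks by an overlap of at least 1 base. Peaks annotated to the pseudogenes COL6A4P1, COL6A4P2 and LAMB2P1 were left out by the biotype. The coordinates were read as GRCh38, since 97.2% of 116150 peaks on protein-coding genes lay on the RefSeq span of their gene in GRCh38.p14, and are printed counted from 1. The log2 ratio of the normalized densities, lactate over ddH2O, was computed in windows of 2000 bases. Reads were recovered from both densities, taking a raw density as the reads plus 1 over the window in kb and the normalization as a line in the mean log2 density (intercept -0.20, slope 0.17), which gave whole reads in both libraries within a tolerance of 0.05 reads for 100.00% of windows. The recovery was tested on data simulated with the same formula and line, which checks the arithmetic only. It cannot show that the deposited densities hold every read under a called peak. The alternative scale divided reads plus 1 by each library's sum outside MT-RNR2 and MALAT1. A fold had to reach 2 at 20 reads or more. Intervals are Wilson for shares, exact Clopper-Pearson for ratios and exact Poisson for reads.

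Named genes were the 5 densest per family, the 6 windows with most reads in each direction and the 4 highest folds per list, and for the pathway lists the densest gene and up to 2 past 2-fold in each direction. Of the genes so named, 1 is not reported here and is not drawn by name, though it is part of the family counts. The members and lists were chosen with earlier results of these data known. Promoter entries were found for 43 of the 58 members. No genome sequence was used here, so peak sequences beyond those entries are not given. Software was matplotlib 3.10.9, scipy 1.17.1, pandas 2.3.3 and numpy 2.4.6 under Python 3.11.15.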

Additional observations from a re-analysis of the deposited data

How the results depend on the processing

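The counts and shares were recomputed under 54 alternatives, of which 28 gave values within the limits set, 25 moved and 1 reversed. The median log2 ratio of the members' windows went from -0.23 to 0.00, just past 0, by library sums, and to -0.13 with the reads centred on the median of all windows. Higher windows (12) numbered 20 by library sums, 22 at 10 reads, 6 at 50 reads, 62 with no read minimum, 19 at 1.5-fold and 3 at 4-fold. Lower windows (28) numbered 9 at 50 reads, 116 with no read minimum, 17 with 1 window per overlapping set, 46 at 1.5-fold and 2 at 4-fold. Shares over all windows are not given at the changed read minimum, fold or overlap. These counts therefore do not set the members apart from other genes. With a fold over input of at least 4, lactate peaks fell from 165 to 58 and ddH2O peaks from 273 to 99, genes with a lactate peak from 40 to 23 and with a ddH2O peak from 52 to 26, and intron shares from 52.7% to 44.8% and from 47.3% to 35.4%. With a q-value below 0.05 these were 73 and 144 peaks, 24 genes with a lactate peak, and intron shares of 39.7% and 34.7%. Intron shares of other protein-coding genes are not given at these cuts, so no comparison with them is drawn. By bases covered the ddH2O intron share was 40.5%, and at an overlap of 50% of both peaks 40.0% of lactate peaks were shared, in place of 55.2%, and on other protein-coding genes 39.8% in place of 58.5%. The cause of the shift between scalings was not tested. No paired analysis was possible because only 1 IP library stood for each treatment. Intervals cover counting error only, the spread between cultures is unknown, and a window at the read minimum is loosely bounded, as ITGB3 with 8 and 12 reads, whose log2 ratio has a counting interval from -1.87 to 1.03.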
